A study of Mus musculus with 6 samples.

Results

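The cytochrome P450 genes of families 1 to 3, which hold most of the drug-metabolising P450s, were examined in mouse liver. Members were chosen by name alone: every probe that is not a control and whose gene name on the array begins with Cyp1, Cyp2 or Cyp3 followed by a letter. The rule found 75 probes on 84 spots for 58 genes, out of 31896 gene names on the array. Of these 58 genes, 50 had a probe that the scanner software marked well above background in every measured mouse of a diet, and were tested. The other 8 were Cyp1a1, Cyp2ab1, Cyp2b19, Cyp2b23, Cyp2c65, Cyp2c66, Cyp2j11 and Cyp2w1.

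The samples were 6 male C57BL/6 mice, an inbred laboratory strain, aged 5 weeks at the start, of which 3 ate a control diet and 3 a diet with moderately restricted carbohydrate. The sample titles call both diets supplemented and do not name the supplement. Both diets shared the tumour model: a transposon vector labelled HrasG12V / shp53 / GFP4 (an activated human HRAS, a hairpin against p53 and a GFP construct) was injected hydrodynamically into the tail vein, so the liver cells that took it up carried it and there was no vector-free group. RNA came from liver outside the tumours. The labels conflict: the samples' own labels state 1 preliminary week and 5 weeks of diet where the series text states 2 and 4, and the series title and design name a formula (MCDmp) whose plant compounds the sample labels do not mention. Each mouse gave 1 single-colour array, so precision is limited by having 3 arrays per diet.

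P450 enzymes are heme proteins of the endoplasmic reticulum that take electrons from the reductase Por and insert an oxygen atom into lipophilic molecules, which readies them for conjugation and excretion. Families 1 to 3 act on drugs, plant chemicals, steroids and fatty acids and are most abundant in hepatocytes. Textbook regulators are the receptors AHR for Cyp1 genes, CAR for Cyp2b genes and PXR for Cyp3a genes, and in mice many Cyp2 and Cyp3 genes also differ between the sexes under the control of growth hormone. Mouse subfamilies lie in tandem clusters of close copies, so a probe may also read its neighbours.

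P450 transcripts were mostly higher on the restricted diet. Of the 50 tested members, 35 were higher, 1 was lower and 14 did not pass the test, against 14.6% of all 19616 features called higher and 12.8% called lower. Of those 35, 28 were at least 2-fold higher, where 8.01% of all features were called and at least 2-fold higher. Values of the 3 restricted mice lay wholly above those of the 3 control mice for 38 members and wholly below for 3, against 26.1% and 18.8% of all features (44.8% in either direction). The median difference was 1.04 over the members and 0.12 over all features. Here and below, levels are log2 signals after subtraction of each array's 75th percentile, differences are restricted minus control with the SE, and adjusted p is that of limma with Benjamini-Hochberg adjustment over all features.

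Slide limits these counts. The 3 control mice and restricted mouse 1 were hybridised on slide 1, restricted mice 2 and 3 on slide 2. A fit with slide as a block therefore gives the same differences as slide 1 alone, where restricted mouse 1 stands for its diet, and only the error differs. On slide 1 alone that error rests on the 3 control mice, and restricted mouse 1 is assumed to vary like them. All 35 higher members kept their sign there, with a median difference of 1.29, and 18 of 35 were still called with slide as a block and 12 on slide 1 alone. Of all features, 5.71% were called higher with slide as a block. In each of the 6 fits that leave out 1 mouse, all 36 called members kept their sign, and 24 of 36 were called every time. The kept signs, here and on slide 1, were fixed in advance, because no called member overlapped between the diets. The 11 members called in all of these fits were Cyp2a4, Cyp2a21-ps, Cyp2a22, Cyp2c38, Cyp2c39, Cyp2c55, Cyp2d9, Cyp2f2, Cyp2j8, Cyp3a25 and Cyp3a57.

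**Figure D1:**
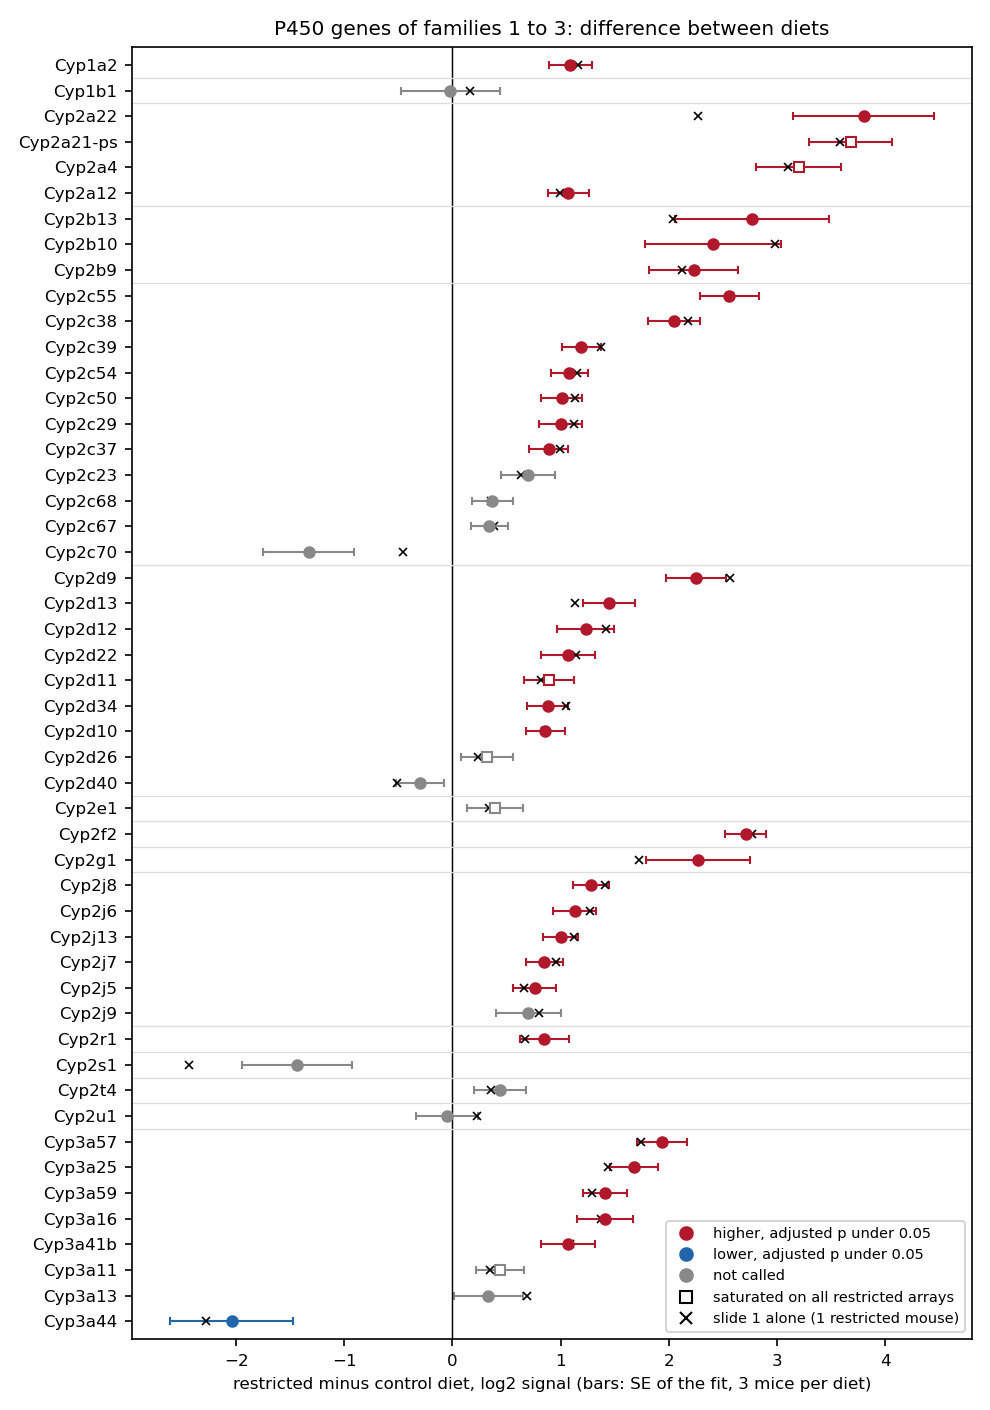
Difference between diets (log2 signal, restricted minus control, horizontal axis) for the 50 tested P450 genes grouped by subfamily, with bars for the SE of the fit (3 mice per diet), colours for calls at adjusted p under 0.05, open squares for probes saturated on all 3 restricted arrays and crosses for slide 1 alone. Points of the 35 higher genes run from 0.76 (Cyp2j5) to 3.80 (Cyp2a22), and Cyp3a44 at -2.04 is the gene called lower.

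Some of the probes that carry these results are close copies of one another. The probes of Cyp2a4 and of its pseudogene neighbour Cyp2a21-ps align over 56 bases, of which 52 are identical, with a shared run of 31 bases. The stretch in which they differ most is shown because both signals reached saturation on the restricted diet (capitals mark the bases that differ).

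Cyp2a4: acTAtgagtttcttgtcccGttgaTcctgg
Cyp2a21-ps: acACtgagtttcttgtcccAttgaGcctgg

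The probes of Cyp3a41b and Cyp3a44 align over 53 bases with 46 identical and share a run of 23 bases, yet their signals moved in opposite directions. Their most different stretch follows, with differing bases in capitals.

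Cyp3a41b: cagtgtctgtAcaGgttaTcatCtaatTAA
Cyp3a44: cagtgtctgtGcaAgttaAcatAtaatACG

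A different case is the brightest probe of Cyp2u1, which holds a run of GT repeats and shares at least 20 bases with 56 probes of other names. A 30-base window of the repeat is shown because nothing in it is specific to the gene.

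Cyp2u1: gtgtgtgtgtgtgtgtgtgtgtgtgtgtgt

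Of the 2 tested Cyp1 genes, textbook targets of the AHR, Cyp1a2 was higher and Cyp1b1 did not pass. Cyp1a2, which oxidises caffeine and aromatic amines, measured 2.17, 1.61 and 1.85 in the control mice and 3.03, 2.86 and 2.99 in the restricted mice. The groups did not overlap, and the gene rose by 1.09 ± 0.20 (adjusted p = 0.00771; probe on mm9 chromosome 9, 57528060 to 57528119). On slide 1 the difference was 1.16, with adjusted p = 0.0492 for slide as a block and 0.096 on that slide alone. Cyp1b1, which acts on estrogens and polycyclic hydrocarbons, had no settled sign, with -3.95, -3.44 and -5.33 against -4.08, -4.13 and -4.56 differing by -0.02 ± 0.46 (adjusted p = 0.981). Cyp1a1 was not well above background in any control mouse and was so in 2 of 3 restricted mice. With the control arrays set to their background floor it was 1.8-fold higher, without a test.

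The 5 largest increases, those of Cyp2a22, Cyp2a21-ps, Cyp2a4, Cyp2b13 and Cyp2f2, came from genes that lie together on chromosome 7. That cluster holds 13 member genes within 1.356 Mb (mm9, 26587495 to 27943565), of which 11 were tested and 9 were higher. The genes at its ends, Cyp2s1 and Cyp2t4, did not pass, and Cyp2b19 and Cyp2b23 within it were not well above background on any array.

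All 4 Cyp2a genes were higher. Cyp2a4, a steroid hydroxylase, measured 3.33, 4.43 and 4.84 in control mice and 7.30, 7.15 and 7.74 in restricted mice (mm9 chromosome 7, 27099880 to 27099939). The probe was saturated on all 3 restricted arrays, so the rise of 3.20 ± 0.39 (adjusted p = 0.00166) is a bound of at least 9.19-fold. A dimmer Cyp2a4 probe, whose 60 bases lie on an interval of 1066 bases of mm9 and so span an exon junction, was not saturated on any array. It is shown because it gives the size that the brighter probe cannot.

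Cyp2a4: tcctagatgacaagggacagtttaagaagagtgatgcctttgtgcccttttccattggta

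This probe measured 1.38, 2.30 and 2.59 against 6.56, 6.94 and 6.94, a rise of 4.72 ± 0.33, or 26.4-fold (adjusted p = 0.000315 with every probe tested). Every restricted mouse lay well above every control mouse on both probes. Cyp2a21-ps, annotated as a pseudogene, measured 2.94, 4.07 and 4.38 against 7.38, 7.25 and 7.79. Its restricted arrays were all saturated as well, and it was at least 12.8-fold higher (3.68 ± 0.38, adjusted p = 0.000928). With the sequence match given above, the signals of Cyp2a4 and Cyp2a21-ps may come from the same transcripts, which was not tested.

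Cyp2a22 measured -5.64, -5.02 and -4.76 on the control diet, with control mouse 1 not well above background, and -2.87, -0.17 and -0.99 on the restricted diet. The difference was 3.80 ± 0.65 (adjusted p = 0.00622), or 12.5-fold when that dim array is set to its background floor. It fell to 2.27 on slide 1 (adjusted p = 0.0235 with slide as a block) and to 1.92 after normexp background correction. Normexp adds an offset of 50 to each signal, which by itself shrinks the differences of dim probes. Cyp2a12, a steroid hydroxylase, rose less, from 5.77, 5.85 and 6.21 to 6.94, 6.98 and 7.13 (1.07 ± 0.19, adjusted p = 0.00661), and its call ended with slide as a block (0.99, adjusted p = 0.0658).

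The 3 tested Cyp2b genes were higher, with wide spread between mice. Cyp2b10, the classic phenobarbital-inducible target of CAR, measured 4.51, 4.38 and 2.83 in control mice and 6.89, 6.98 and 5.08 in restricted mice. Mouse 3 was the lowest in each diet, and the difference was 2.41 ± 0.63 (adjusted p = 0.0303; mm9 chromosome 7, 26711522 to 26711581). Cyp2b13, expressed mainly in females, measured -1.34, -0.74 and -2.11 against 0.64, 3.05 and 0.43, so restricted mouse 2 stood highest, and it rose by 2.77 ± 0.71 (adjusted p = 0.0282). Cyp2b9, also female-predominant, measured -1.28, -0.95 and -1.45 against 0.89, 1.91 and 0.23 and rose by 2.23 ± 0.41 (adjusted p = 0.00822).

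The calls of all 3 Cyp2b genes ended with slide as a block (adjusted p = 0.0717 to 0.237), where the differences were 2.98, 2.04 and 2.12. Leaving out 1 mouse at a time, Cyp2b10 was called in 2 of 6 fits, Cyp2b13 in 3 of 6 and Cyp2b9 in 6 of 6. The 250 bases before the start sites of Cyp2b9 and Cyp2b13 are near-identical, 248 of 250, while their probes share no run of 15 bases or more. The Cyp2b9 sequence (RefSeq, GRCm38.p6, chr7:26173159-26173408, plus strand) is printed with the 2 bases at which Cyp2b13 differs in capitals.

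Cyp2b9: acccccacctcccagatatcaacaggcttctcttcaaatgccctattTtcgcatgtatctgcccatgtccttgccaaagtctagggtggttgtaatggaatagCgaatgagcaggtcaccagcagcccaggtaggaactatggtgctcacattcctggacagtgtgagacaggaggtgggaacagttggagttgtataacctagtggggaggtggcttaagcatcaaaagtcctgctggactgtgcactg

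Cyp2f2, known for activating naphthalene in lung and liver, had the smallest adjusted p of all members. It measured 4.23, 4.62 and 4.70 in control mice and 7.29, 7.13 and 7.28 in restricted mice, 2 of whose arrays were saturated, and rose by 2.71 ± 0.19 (adjusted p = 0.000335; mm9 chromosome 7, 27918570 to 27918629). On slide 1 it was 2.77 (adjusted p = 0.00301 with slide as a block). Cyp2g1, known from olfactory mucosa, was dim, at -4.07, -3.84 and -2.63 against -1.79, -1.52 and -0.42. Its rise of 2.27 ± 0.48 (adjusted p = 0.0142) was not called with slide as a block (1.72, adjusted p = 0.144) and shrank to 1.35 with normexp.

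Cyp2s1, known from epithelia outside the liver, measured -1.48, -1.49 and -0.47 against -3.59, -1.67 and -2.48. All restricted mice lay below all controls, but the difference of -1.44 ± 0.51 did not pass (adjusted p = 0.0792). On slide 1 it was -2.44 and passed with slide as a block (adjusted p = 0.0276). Cyp2t4, at the other end, overlapped between diets, with -3.73, -3.24 and -3.51 against -3.13, -3.36 and -2.68 (0.44 ± 0.24, adjusted p = 0.215).

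**Figure D2:**
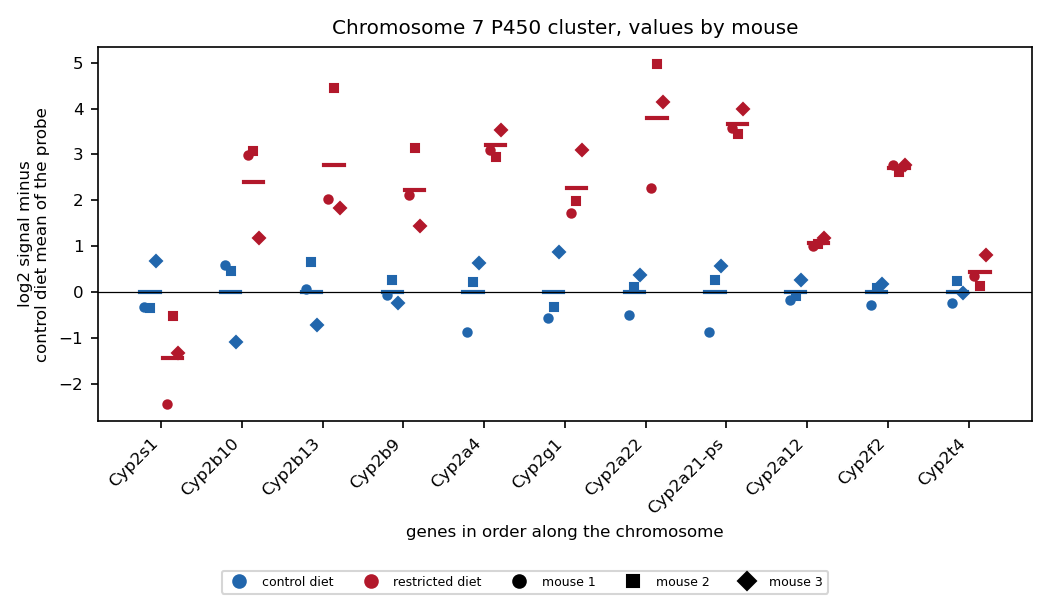
Values by mouse for the 11 tested genes of the chromosome 7 cluster in chromosome order, as log2 signal minus the control mean of the same probe, with horizontal lines at the means and symbols for the 3 mice of each diet. The 9 genes between Cyp2s1 and Cyp2t4 show all restricted mice above all control mice, and the spread between restricted mice is widest for Cyp2b13 and Cyp2a22.

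The Cyp2c genes, which include epoxygenases of arachidonic and linoleic acid, were split: 7 of 11 tested were higher and 4 did not pass. Of the members, 12 lie within 1.111 Mb of chromosome 19. Cyp2c55, known best from the intestine, was dim, at -3.50, -3.30 and -4.12 against -1.07, -0.79 and -1.37. It rose by 2.56 ± 0.27 (adjusted p = 0.000956; mm9 chromosome 19, 39116674 to 39116733) with a wide gap between the diets, but by 1.50 with normexp.

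Cyp2c38 measured 3.76, 3.58 and 2.99 against 5.62, 5.53 and 5.35 and rose by 2.05 ± 0.24 (adjusted p = 0.00134), and its dimmer probe by 1.44 (adjusted p = 0.00317 with every probe tested). Cyp2c39, a retinoic acid hydroxylase, measured 3.90, 3.64 and 3.63 against 5.09, 4.88 and 4.77, a rise of 1.19 ± 0.18 (adjusted p = 0.00358). Cyp2c54, an epoxygenase, measured 6.10, 5.91 and 5.81 against 7.10, 6.86 and 7.10 (1.08 ± 0.17, adjusted p = 0.00471). For each of these 3 genes no restricted mouse fell within the control range. Cyp2c29, Cyp2c37 and Cyp2c50 rose by 0.89 to 1.01, and of these Cyp2c29 and Cyp2c37 were not called with slide as a block (adjusted p = 0.0539 and 0.0563).

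Of the Cyp2c genes that did not pass, Cyp2c67 and Cyp2c68 lie among genes that did. Cyp2c67 measured 5.86, 5.82 and 5.75 against 6.19, 6.33 and 5.93, differing by 0.34 ± 0.17 (adjusted p = 0.193), while its neighbour Cyp2c68 differed by 0.37 (adjusted p = 0.191). A second Cyp2c67 probe, which shares a 25-base run with that of Cyp2c68, differed by 0.59 without passing (adjusted p = 0.0513 with every probe tested). Cyp2c70, which makes muricholic acids from bile acids in mice, ran the other way at the end of the same cluster. It measured 6.82, 6.15 and 5.87 on the control diet, where mouse 1 was saturated, and 5.82, 4.64 and 4.38 on the restricted diet.

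The Cyp2c70 difference was -1.33 ± 0.42 with no overlap between diets, and it just missed the threshold (adjusted p = 0.0553). It passed with normexp (-1.38, adjusted p = 0.0361) and with quantile normalization (-1.74, adjusted p = 0.031), but on slide 1 it was -0.46 (adjusted p = 0.517 with slide as a block). Cyp2c23, named Cyp2c44 on the array and lying apart from the cluster, is an arachidonic acid epoxygenase and differed by 0.70 ± 0.25 (adjusted p = 0.0779). Cyp2c65 and Cyp2c66, better known from the intestine, were not tested.

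Of the 9 Cyp2d genes, all tested and within 0.416 Mb of chromosome 15, 7 were higher. Cyp2d9, a male-predominant testosterone hydroxylase, led them with 2.43, 1.66 and 1.59 against 4.46, 3.88 and 4.07. It rose by 2.25 ± 0.28 (adjusted p = 0.0018; mm9 chromosome 15, 82285582 to 82285641), and it was the Cyp2d gene still called with slide as a block (2.57, adjusted p = 0.00897). Cyp2d13 measured -0.22, -0.09 and 0.31 against 1.13, 1.42 and 1.81 and rose by 1.45 ± 0.24 (adjusted p = 0.00555).

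Cyp2d12 rose by 1.23 ± 0.26 (adjusted p = 0.0148), from 4.40, 3.91 and 3.53 to 5.37, 5.26 and 4.89. Cyp2d22, which metabolises drugs like its human relative CYP2D6, measured 1.85, 1.19 and 1.14 against 2.54, 2.67 and 2.19 (1.07 ± 0.25, adjusted p = 0.0202). Mice of the 2 diets did not overlap for any of these genes. With slide as a block, the 6 higher genes other than Cyp2d9 had adjusted p from 0.0538 (Cyp2d34) to 0.174 (Cyp2d11).

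Saturation sets what the brightest Cyp2d probes can show. Cyp2d11 measured 6.28, 6.52 and 6.80 against 7.36, 7.16 and 7.75, all 3 restricted arrays saturated, and was at least 1.85-fold higher (0.89 ± 0.23, adjusted p = 0.0272). Cyp2d26 was saturated on all 6 arrays, at 6.80, 7.09 and 7.44 against 7.35, 7.17 and 7.76, so its difference of 0.32 ± 0.24 (adjusted p = 0.376) says nothing of its level. The 109 features of the array that were saturated on all 6 arrays differed by 0.29 to 0.40, median 0.34, and Cyp2d26 lay among them. Cyp2d40 overlapped between diets, with 4.20, 4.66 and 4.07 against 3.80, 4.24 and 3.97 (-0.30 ± 0.22, adjusted p = 0.356).

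The 2 Cyp2d34 probes gave different sizes. The brighter rose by 0.88 ± 0.19 (adjusted p = 0.0159), the dimmer, at -2.78, -3.45 and -3.51 against -0.56, -1.28 and -1.07, by 2.27 ± 0.28 (adjusted p = 0.00167 with every probe tested). The dimmer probe shares a 17-base run with that of Cyp2d9, which rose by 2.25. Whether it reads Cyp2d9 transcripts was not tested.

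Cyp2e1, which oxidises ethanol and acetone and activates paracetamol, was saturated on all 6 arrays with its brightest probe, at 6.89, 7.30 and 7.72 against 7.64, 7.48 and 7.96 (0.39 ± 0.26, adjusted p = 0.306). Its other probe was saturated on 2 restricted arrays and on no control array, and measured 6.79, 6.32 and 6.05 against 7.53, 7.31 and 7.22. The restricted mice all lay above the controls there, a rise of 0.97 ± 0.23 (adjusted p = 0.0219 with every probe tested).

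Saturation fell mainly on restricted arrays. Over the 8 tested members saturated on at least 1 array, it was recorded on 20 restricted against 9 control arrays. The members saturated on every restricted array were Cyp2a4, Cyp2a21-ps, Cyp2d11, Cyp2d26, Cyp2e1 and Cyp3a11. Taking for each gene the brightest probe that was saturated on no array gave 36 higher members. Genes without such a probe, among them Cyp2a21-ps, Cyp2d11, Cyp2d26, Cyp2e1 and Cyp2f2, kept a saturated one.

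The Cyp2j genes, epoxygenases of arachidonic acid on chromosome 4, mostly rose. Of 6 tested, 5 were higher, by 0.76 to 1.28. Cyp2j8 measured 2.62, 2.44 and 2.37 against 3.89, 3.77 and 3.61 (1.28 ± 0.17, adjusted p = 0.00228; mm9 chromosome 4, 96111331 to 96111390). Cyp2j6 measured 0.36, -0.20 and -0.02 against 1.32, 1.12 and 1.09 (1.13 ± 0.20, adjusted p = 0.00718). In the tested probes of both genes the diets were separated by more than the spread within a diet. A dimmer Cyp2j6 probe rose by 1.55 (adjusted p = 0.0341 with every probe tested).

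Cyp2j13 measured 0.54, 0.53 and 0.73 against 1.71, 1.48 and 1.61 (1.00 ± 0.16, adjusted p = 0.00523), although a dimmer probe of it differed by 0.38 and overlapped (adjusted p = 0.313 with every probe tested). Cyp2j7 rose by 0.85 ± 0.17 (adjusted p = 0.0101), from -2.84, -2.67 and -2.57 to -1.73, -1.92 and -1.87. Cyp2j5, well known from kidney and liver, rose by 0.76 (adjusted p = 0.0318) and was the Cyp2j gene whose call ended with slide as a block (0.66, adjusted p = 0.213). Cyp2j9 overlapped between the diets, at 1.28, 1.10 and 0.95 against 1.90, 1.19 and 2.33, and did not pass (0.70 ± 0.30, adjusted p = 0.13).

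Of the Cyp2 genes that stand alone, Cyp2r1, which activates vitamin D, rose from 2.50, 2.50 and 2.98 to 3.33, 3.33 and 3.86. That difference of 0.85 ± 0.23 (adjusted p = 0.0359) was not called with slide as a block (0.67, adjusted p = 0.258), and a second probe differed by 0.46 without passing. Cyp2u1, a fatty acid hydroxylase, depended wholly on the probe. The repeat-bearing probe shown above measured 6.55, 6.49 and 5.65 against 6.46, 6.18 and 5.91 (-0.05 ± 0.29, adjusted p = 0.925). A dim probe without that repeat measured -5.86, -5.55 and -4.76, with 1 of 3 control arrays well above background, against -3.44, -3.22 and -2.60 (2.30 ± 0.34, adjusted p = 0.00359 with every probe tested).

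**Figure D3:**
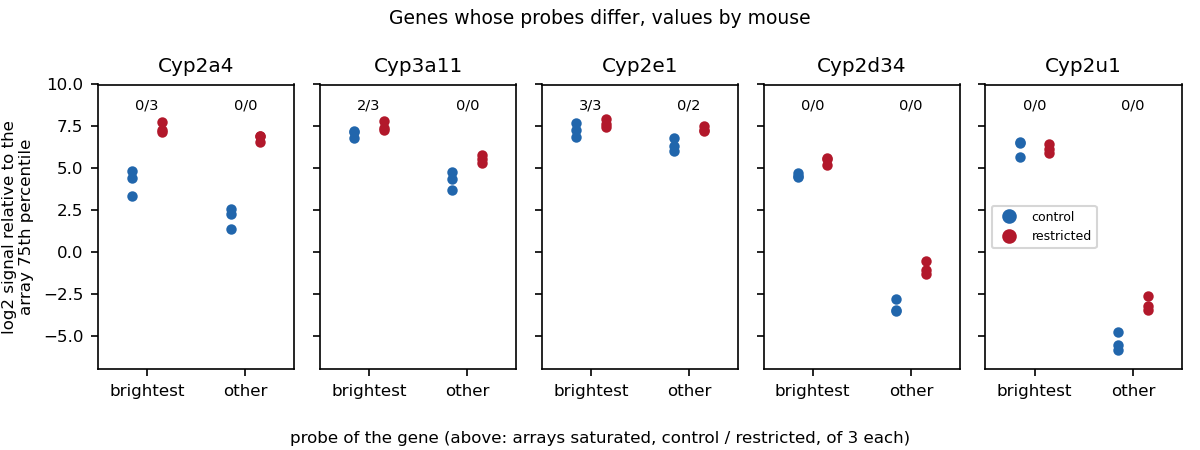
Log2 signal (75th percentile of the array subtracted) by mouse for both kept probes of 5 genes, the brightest on the left of each panel and the other on the right, with the number of saturated control and restricted arrays above. The other probes of Cyp2a4, Cyp3a11, Cyp2e1, Cyp2d34 and Cyp2u1 rose by 4.72, 1.27, 0.97, 2.27 and 2.30, while the brightest Cyp3a11, Cyp2e1 and Cyp2u1 probes did not pass. Levels of different probes are not comparable.

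Over all members with more than 1 kept probe (14 genes, 15 further probes), 14 further probes had the sign of the tested probe and 11 were higher at adjusted p under 0.05 with every probe tested. The Cyp2u1 probe was the exception in sign. Counted by probe, 46 of the 65 kept member probes were higher and 1 was lower, against 14.1% and 12.6% of all kept probes.

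The Cyp3a genes, whose products oxidise the widest range of drugs as well as steroids and bile acids, went both ways. Of 8 tested, 5 were higher, 1 was lower and 2 did not pass, and 7 of them lie within 0.773 Mb of chromosome 5. Cyp3a57 measured 3.69, 3.23 and 3.13 against 5.09, 5.21 and 5.56 and rose by 1.94 ± 0.23 (adjusted p = 0.00136; mm9 chromosome 5, 146151322 to 146151381). Cyp3a25 measured 4.80, 4.42 and 4.61 against 6.05, 6.18 and 6.63 (1.68 ± 0.22, adjusted p = 0.002).

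Cyp3a59 rose from 4.44, 4.17 and 3.87 to 5.45, 5.74 and 5.50 (1.41 ± 0.20, adjusted p = 0.00326), and its other probe by 1.58. Cyp3a16, a gene of fetal and female liver, rose from 4.71, 4.64 and 3.85 to 5.77, 5.85 and 5.80 (1.41 ± 0.26, adjusted p = 0.00776). The call of Cyp3a16 ended with slide as a block (1.37, adjusted p = 0.0649). Cyp3a41b, female-predominant, measured 2.47, 2.21 and 1.56 against 3.17, 3.18 and 3.11 (1.07 ± 0.25, adjusted p = 0.0204; 1.09 and adjusted p = 0.117 with slide as a block).

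Cyp3a44, another female-predominant gene, was the member called lower. It measured -2.04, -1.85 and -3.60 in control mice and -4.78, -3.64 and -5.20 in restricted mice, where 2 of 3 arrays were well above background. No restricted mouse reached a control value, though restricted mouse 2 came close to control mouse 3. The difference was -2.04 ± 0.57 (adjusted p = 0.0362), or 3.76-fold lower when the dim array is set to its background floor (mm9 chromosome 5, 146585717 to 146585776). The call ended with slide as a block (-2.28, adjusted p = 0.131), with normexp (-0.65, adjusted p = 0.0592), with quantile normalization (-1.94, adjusted p = 0.0566), without a background filter (adjusted p = 0.0683), and without mouse 1 or 2 of the control diet or mouse 1 or 3 of the restricted diet (adjusted p = 0.0909 to 0.116).

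The opposite directions of Cyp3a44 and of its neighbours Cyp3a16 and Cyp3a41b, none of them called with slide as a block, stood beside near-identical promoters. Over the 250 bases before the start site, Cyp3a44 was identical to Cyp3a41b at 237 of 250 bases and to Cyp3a16 at 236 of 246 after a shift of 4 bases. The sequences of Cyp3a41b (RefSeq, GRCm38.p6, chr5:145584731-145584980, minus strand) and Cyp3a44 (chr5:145805875-145806124, minus strand) follow, with the 13 differing bases in capitals.

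Cyp3a41b: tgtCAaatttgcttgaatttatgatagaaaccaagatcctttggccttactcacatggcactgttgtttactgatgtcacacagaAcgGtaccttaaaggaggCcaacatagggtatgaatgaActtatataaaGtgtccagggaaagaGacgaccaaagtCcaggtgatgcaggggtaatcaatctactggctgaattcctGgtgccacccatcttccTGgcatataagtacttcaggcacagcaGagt
Cyp3a44: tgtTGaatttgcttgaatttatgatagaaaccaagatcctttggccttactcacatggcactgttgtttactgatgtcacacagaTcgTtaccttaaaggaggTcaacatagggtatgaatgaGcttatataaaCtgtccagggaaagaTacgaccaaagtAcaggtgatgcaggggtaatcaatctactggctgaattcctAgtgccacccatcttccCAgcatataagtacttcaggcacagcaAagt

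Cyp3a25 and Cyp3a59, which rose by 1.68 and 1.41, form a second pair, with 238 of 249 bases identical after a shift of 1 base. In Cyp3a57, Cyp3a25 and Cyp3a59 the window holds the motif AGGTCA, to which many nuclear receptors bind, on each strand, with first bases 21 apart. These are shown for Cyp3a57 (chr5:145345019-145345268, plus strand), where they begin 174 and 153 bases before the start site, and for Cyp3a25 (chr5:146009619-146009868, minus strand), with the motif in capitals.

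Cyp3a57: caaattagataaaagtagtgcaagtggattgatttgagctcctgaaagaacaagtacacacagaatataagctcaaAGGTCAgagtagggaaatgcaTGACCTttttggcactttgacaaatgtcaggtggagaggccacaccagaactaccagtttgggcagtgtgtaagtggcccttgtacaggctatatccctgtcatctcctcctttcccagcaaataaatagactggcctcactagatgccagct
Cyp3a25: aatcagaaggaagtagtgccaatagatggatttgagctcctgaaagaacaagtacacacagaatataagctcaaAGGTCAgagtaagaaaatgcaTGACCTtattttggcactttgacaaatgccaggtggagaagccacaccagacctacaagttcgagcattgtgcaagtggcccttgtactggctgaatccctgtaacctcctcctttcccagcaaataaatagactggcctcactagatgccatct

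Promoter entries were at hand for 48 of the 58 genes (51 start sites). On both strands, AGGTCA was found in 16 of 51 of these windows (31.4%) against 14.02% of 32851 mouse promoter windows of the same length. The STAT5 motif TTCNNNGAA was found in 1.96% against 7.02%, and the AHR motif TNGCGTG in 1.96% against 4.1%. Tandem copies share sequence, so these windows are not independent, and a match does not show binding. AGGTCA was also present in the window of Cyp3a44, which was lower, and in those of Cyp2c70, Cyp2t4 and Cyp3a11, whose tested probes did not pass. The windows of Cyp2b19 and Cyp2b23, which were not tested, held it as well.

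Cyp3a11, the main PXR target of mouse liver, was saturated on 2 control and 3 restricted arrays with its brightest probe, at 6.82, 7.14 and 7.20 against 7.40, 7.26 and 7.83. That difference of 0.44 ± 0.22 did not pass (adjusted p = 0.174). A dimmer probe that spans an exon junction (1868 bases of mm9, chromosome 5, 146672058 to 146673925, minus strand) was never saturated and is shown for that reason.

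Cyp3a11: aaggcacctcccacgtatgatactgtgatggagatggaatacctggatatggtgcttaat

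It measured 4.79, 4.38 and 3.70 against 5.58, 5.79 and 5.29, with no overlap, and rose by 1.27 ± 0.30 (adjusted p = 0.0217 with every probe tested). Cyp3a13, which lies apart from the cluster and is also expressed in intestine, overlapped between diets, at 4.45, 3.85 and 3.64 against 4.67, 4.51 and 3.75 (0.33 ± 0.32, adjusted p = 0.482).

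**Figure D4:**
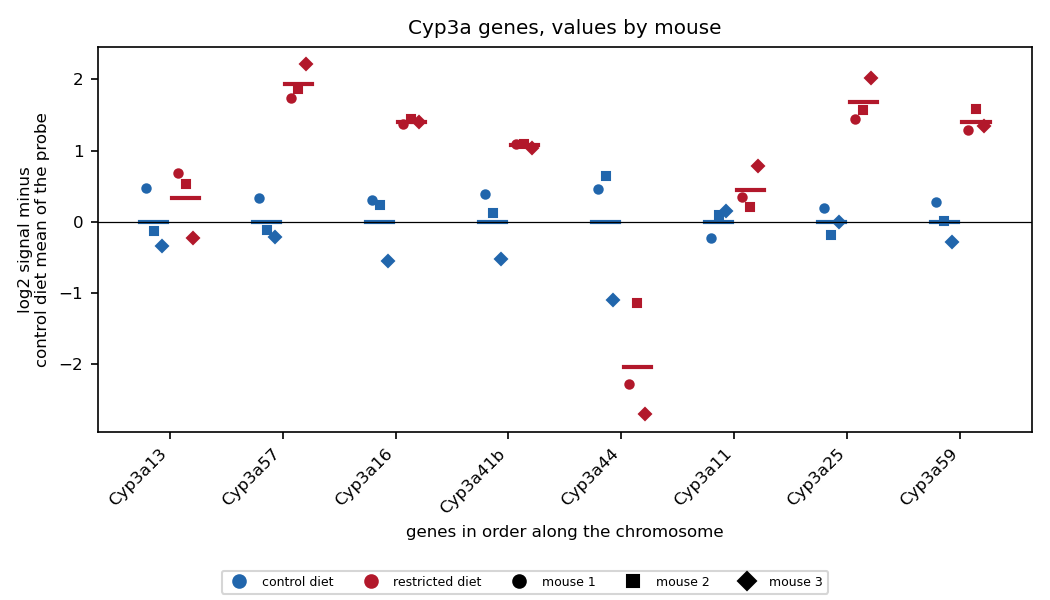
Values by mouse for the 8 tested Cyp3a genes in chromosome order, as log2 signal minus the control mean of the same probe, with horizontal lines at the means and symbols for the 3 mice of each diet. Cyp3a57, Cyp3a16, Cyp3a41b, Cyp3a25 and Cyp3a59 lie above the control mice, Cyp3a44 below them, and the Cyp3a11 probe drawn is the one saturated on 5 of 6 arrays.

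Most members known to be female-predominant were higher in these male mice, as were 35 of all 50 tested members (median difference 1.04). Of 8 female-predominant members tested, 7 were higher (Cyp2a4, Cyp2b9, Cyp2b10, Cyp2b13, Cyp2c39, Cyp3a16 and Cyp3a41b) and Cyp3a44 was lower, with a median difference of 1.82. Of those 7, 2 were called with slide as a block. Of the 2 male-predominant members tested, Cyp2d9 was higher and Cyp2u1, on its repeat-bearing probe, did not pass (-0.05). Outside families 1 to 3 2 of 9 female-biased genes were lower and 7 did not pass, while 7 of 9 male-biased genes were higher.

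Among those, Slc22a26, a female-biased transporter, fell by 3.83 (SE 0.85, adjusted p = 0.0163) and Atp6v0d2, a proton pump subunit, by 1.90 (SE 0.46, adjusted p = 0.0224). Both calls ended without control mouse 1 (adjusted p = 0.057 and 0.0618). Cyp4a12a and Cyp4a12b, male-specific fatty acid hydroxylases, rose by 7.35 and 7.21 (adjusted p = 0.000303 and 0.000273). Nudt7, a peroxisomal hydrolase, rose by 2.67. Elovl3, a fatty acid elongase with 2 of 3 control arrays well above background, rose by 4.60, or by 2.52 with normexp. With its dim array set to the background floor, Elovl3 was 19.5-fold higher. All 6 genes were still called with slide as a block.

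The electron transfer partners of P450s were in part higher. Of 5 genes, 3 were called: Cyb5r3, a reductase of cytochrome b5, rose by 1.71 (adjusted p = 0.00166), Cyb5b, the mitochondrial cytochrome b5, by 1.41 (adjusted p = 0.00135), and Pgrmc1, a heme protein that binds P450s, by 1.19 (adjusted p = 0.00279). All 3 were still called with slide as a block. Por itself did not pass, at 6.37, 6.19 and 6.42 against 6.99, 6.76 and 6.76 (0.51 ± 0.17, adjusted p = 0.0635), although no restricted mouse fell within the control range. Cyb5a was saturated on all 6 arrays, so its difference says nothing of its level.

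Heme is the cofactor that every P450 needs. Of 11 genes of heme supply and breakdown, 4 were higher: Fech, which inserts the iron, by 0.97 (adjusted p = 0.00488), Cpox by 0.91, Urod by 0.69 and Alad by 0.68. Of these, Fech was still called with slide as a block (0.94, adjusted p = 0.0482). Alas1, the rate-limiting enzyme, measured 6.18, 6.27 and 6.88 against 6.70, 7.10 and 8.05 and did not pass (0.84 ± 0.37, adjusted p = 0.142).

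Transcripts of the receptors that govern families 1 to 3 were not called. Nr1i3, which encodes CAR, differed by 0.62 ± 0.35 (adjusted p = 0.234), Nr1i2, which encodes PXR, by 0.47 ± 0.29 (adjusted p = 0.28), and Ahr by -1.02 ± 0.49 (adjusted p = 0.166). Of 12 receptor and partner genes, 2 were higher, Ppara, the fatty acid receptor (1.65, adjusted p = 0.00558), and Nr1h4, the bile acid receptor FXR (1.60, adjusted p = 0.0271). Neither was called with slide as a block (adjusted p = 0.0554 and 0.148). Ahrr, a repressor of AHR, was not well above background on any restricted array. It was called lower (adjusted p = 0.0276), 1.63-fold with those arrays set to their background floor. That call ended with normexp (0.00, adjusted p = 0.993), without a background filter (adjusted p = 0.0523) and in 5 of the 6 fits that leave out 1 mouse, all but that without restricted mouse 2 (adjusted p = 0.0607 to 0.0675).

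Other target genes of these receptors moved in part with the P450s. Of 13 CAR and PXR targets outside families 1 to 3, 7 were higher and 6 did not pass, with a median of 0.95. Gsta1, a glutathione transferase, measured -0.54, 0.63 and -0.01 against 4.53, 4.37 and 4.44 and rose by 4.42 ± 0.30 (adjusted p = 0.000334). Aldh1a1 rose by 2.34, Ces2a, a carboxylesterase, by 2.16, and Aldh1a7 by 1.67, and all 4 were still called with slide as a block. Of 5 AHR targets outside families 1 to 3, Aldh3a1 (0.80) and Ugt1a6a (0.74) were higher and Ahrr was lower within the limits given above. Neither Aldh3a1 nor Ugt1a6a was called with slide as a block (adjusted p = 0.0598 and 0.115).

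Many P450s of these families are strongest in hepatocytes around the central vein. Of 14 other pericentral genes, 5 were higher and 1 was lower, with a median of 0.42, and of 13 periportal genes 2 were higher, with a median of 0.72. Rhbg, an ammonium transporter, rose by 1.63, Rgn, a calcium-binding protein, by 1.03 and Aldh3a2, an aldehyde dehydrogenase, was 4.27-fold higher, while Lect2 fell by 1.11 (adjusted p = 0.00274). Glul, the defining pericentral enzyme, differed by -0.25 (adjusted p = 0.404). On the periportal side Gls2, a glutaminase, rose by 2.15 and Hal, a histidine-degrading enzyme, by 1.18 (adjusted p = 0.0156). With slide as a block 2 pericentral genes were higher, and the calls of Rgn (0.99, adjusted p = 0.0538) and Hal (1.01, adjusted p = 0.137) ended. Hal was also lost with quantile normalization and without control mouse 1 or 2 or restricted mouse 2 (adjusted p = 0.0574 to 0.0627).

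Markers of several other liver cell types differed between the diets. All 15 macrophage and Kupffer cell markers were lower, their summed signal running from 268 to 349 times the array's 75th percentile in the control mice and from 45.2 to 65.2 times in the restricted mice, and 14 were called with slide as a block. Stellate cell and fibroblast markers were lower for 8 of 12 (116 to 151 against 46.7 to 76.4), bile duct markers for 3 of 8 (4.54 to 5.53 against 0.95 to 1.99), neutrophil markers for 6 of 11 with 1 higher (152 to 186 against 91.9 to 135), T and NK cell markers for 3 of 8 (31.3 to 48.7 against 27.8 to 39.2) and B cell markers for 1 of 3 (2 to 2.36 against 0.443 to 1.37). Sinusoidal endothelial markers were higher for 5 of 11 and lower for 1 (29.9 to 43.6 against 43.3 to 57.6). The summed signals of T and NK cell and of endothelial markers overlapped between the diets. With slide as a block, the markers lower were 7 of 12 for stellate cells, 3 of 8 for bile duct, 4 of 11 for neutrophils with 0 higher, 3 of 8 for T and NK cells and 2 of 3 for B cells, and endothelial markers were higher for 4 and lower for 1. With normexp, 1 of 8 bile duct markers (median -0.13 against -1.35) and 1 of 8 T and NK cell markers were lower. On no restricted array were 2 of the bile duct markers and 1 neutrophil marker well above background.

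None of the 14 hepatocyte markers was called in limma's test, and 1 was lower at an unadjusted p under 0.05. With slide as a block 1 was called higher. With quantile normalization 1 was called lower, and the median was 0.01 against 0.36 in the main fit. The summed signal of these markers was 1540 to 2280 against 1950 to 2620. Of the 14, 8 were saturated on all 6 arrays, so they give little measure of the hepatocyte share. In bulk tissue, fewer cells of a type and less RNA per cell cannot be told apart. The part of these shifts in the P450 differences was not tested.

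**Figure D5:**
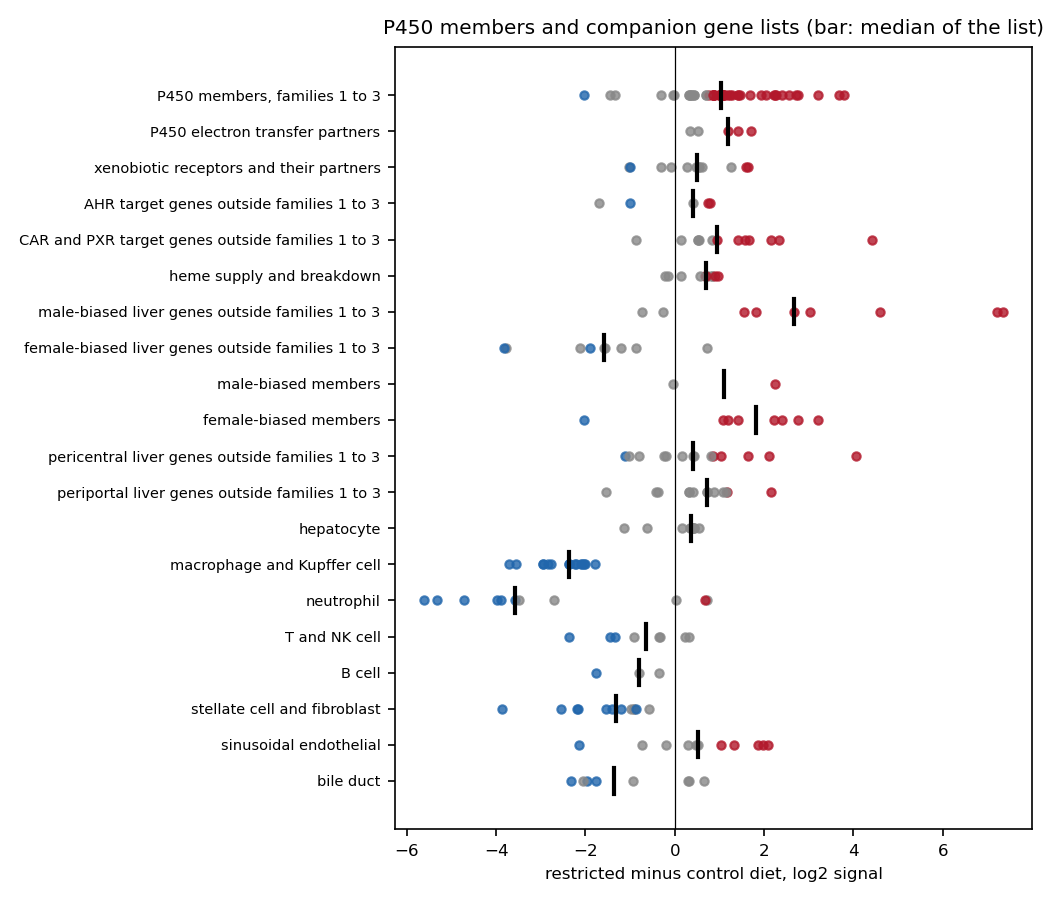
Difference between diets (log2 signal, restricted minus control) of each tested gene, with a black bar at the median, for the P450 members and each companion or marker list, coloured red or blue where called higher or lower and grey where not called. The P450 members centre on 1.04, macrophage markers on -2.37 and hepatocyte markers on 0.36.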

How the data were processed

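Cy3-labelled cRNA from 0.2 ug of RNA was hybridised to Agilent arrays of design 026655 with probe coordinates on mm9. The intensity values are processed signals that the authors deposited, made with Feature Extraction 10.7.3.1 per the file headers (9.3.2.1 per the submitters' processing notes), background-subtracted and detrended. The deposited value table, also in intensity units, equals their linear mean within 0.1% for 99.797% to 99.868% of probes.

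Outlier spots were left out, log2 was taken, replicate spots were averaged per probe, and values were taken relative to each array's 75th percentile (287.4 to 573.6). Of 39429 probes, 24234 passed a filter (well above background in every measured mouse of a diet; 23527 to 25816 probes passed per array), and the brightest probe per name gave 19616 features. Diets were compared with limma 3.58.1 in R 4.3.3 and called at adjusted p under 0.05. The fitting code was checked on simulated data.

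Of 75 member probes, 72 matched a RefSeq accession, and Cyp2c44 was renamed Cyp2c23. Exon or UTR positions were not assigned. Folds at the background floor replace a dim signal by the lowest one that passed as well above background on that array. They hold for this processing and are not bounds under other settings.

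Members, gene lists and the naming rule were chosen with earlier results of these data known. By that rule, values by mouse are given for up to 4 called and 2 other members per subfamily and all saturated ones. Second probes and, for the promoter comparison, Cyp3a16 and Cyp3a41b were added after their values were seen. Up to 4 called genes are named per companion list, and other companion genes named were chosen after their values were seen. Mice sharing a number were not treated as pairs, because the labels state no pairing. The correlations of their deviations were 0.38, 0 and 0.48, against -0.5 to 0.12 for mice of different numbers. Whether the mice were paired was not tested.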

Additional observations from a re-analysis of the deposited data

How the results depend on the processing

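Alternatives changed the background correction, scaling, source of values, filter, moderation, weights, blocks, mice, probe choice and threshold. The normexp correction used an offset of 50, where array medians of the processed signal were 27.51 to 52.04. Smaller differences of dim probes with normexp therefore follow in part from the offset. The 35 higher members became 18 with slide as a block, 12 on slide 1 alone, 21 at adjusted p under 0.01 and 25 to 34 without 1 mouse, and stayed within 1.5 times of 35 otherwise. All features called fell from 5386 to 3013 with slide as a block, 2444 on slide 1 alone and 2533 at adjusted p under 0.01, and were 3357 to 5889 without 1 mouse. Of the calls, 53.2% were upward, against 37.2% with slide as a block and 34.5% on slide 1 alone.

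The lower member is unsettled. The count was 0 among probes well above background on all arrays and at adjusted p under 0.01, 2 with trend and robust moderation, with array weights and with the replicate block (mouse number as a block, 6623 features called and 36 members higher), and 0 to 2 without 1 mouse. Cyp2c70 took the place of Cyp3a44 with normexp, with quantile normalization and without restricted mouse 1, and Cyp2s1 did with slide as a block and on slide 1 alone. Without a background filter it was Cyp2ab1 (-1.04, adjusted p = 0.0294), which is not among the 50 tested members. Both Cyp2c70 and Cyp3a44 were called with the replicate block.

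Of signs, that of Cyp1b1 turned to 0.20 with normexp, 0.06 with quantile normalization, 0.07 with median scaling, 0.16 with slide as a block and on slide 1 alone, and up to 0.38 without 1 mouse (lowest -0.56). Cyp2u1 turned to 0.05 with median scaling, 0.23 with slide as a block and on slide 1 alone, and up to 0.12 without 1 mouse (lowest -0.34), and Cyp2d26 to 0.00 with quantile normalization. None of these was called, and the other 47 tested members kept their sign in every alternative run. The causes were not tested.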

Other observations

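Restricted mouse 2 differed from the other 2 mice of its diet for some female-biased genes, a pattern chosen after the values were seen. Cux2, a female-biased transcription factor, measured -0.28, -0.33 and 0.41 in control mice against -3.23, 0.69 and -2.39 in restricted mice, and Sult3a1, a sulfotransferase, 0.14, -0.53 and -0.86 against -2.53, 0.25 and -2.58. Mouse 2 lay within or above the control range for both genes while the other restricted mice lay below it. The same mouse had the highest Cyp2b13 (3.05 against 0.64 and 0.43), Cyp2b9 (1.91 against 0.89 and 0.23) and Cyp3a44 (-3.64 against -4.78 and -5.20) of its diet, and the lowest Cyp4a12a (3.25 against 4.49 and 4.79). Other female-predominant members did not show this. Restricted mouse 2 was the lowest of its diet for Cyp2a4 (7.15 against 7.30 and 7.74) and the middle one for Cyp2c39 (4.88 against 5.09 and 4.77). It was close to another restricted mouse for Cyp2b10 (6.98 against 6.89 and 5.08), Cyp3a16 (5.85 against 5.77 and 5.80) and Cyp3a41b (3.18 against 3.17 and 3.11). With 3 mice per diet no test of this pattern was made.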
